A study of Mus musculus with 2 samples.

Results

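The antimicrobial program of the Paneth cell was followed through 9 genes in single cells of mouse small intestinal epithelium. The genes were Lyz1, Defa17, Defa21, Defa22, Defa24, Defa30, Itln1, Ang4 and Mmp7, taken by symbol from the 55357 genes in the count tables, and each matched exactly 1 row. One library came from Adipfl/fl mice, whose adiponectin alleles are floxed but intact. The other came from Adipfl/flpVilli-CreT mice, which carry the same floxed alleles and in addition Cre recombinase under the villin promoter, so that adiponectin is deleted in gut epithelial cells and not in other cells of the tissue. Both libraries were described as pooled from young adult male littermates, were made with the 10x Genomics 3′ kit, and are 1 library per genotype. No test between the genotypes is therefore possible, and every interval below is an exact 95% interval for counting error only. Whether Cre was induced, and how efficiently it cut, is not given in the sources used here.

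Paneth cells sit at the base of small intestinal crypts between the Lgr5+ stem cells, and they secrete granules that keep bacteria away from the crypt. The alpha-defensins (Defa genes) are small cationic peptides that permeabilise bacterial membranes, and in the mouse they are made as inactive precursors that the protease Mmp7 (matrilysin) cuts to the active form. Lyz1 is the Paneth cell lysozyme, which cleaves the bacterial cell wall, Itln1 is a lectin that binds microbial glycans, and Ang4 is a secreted ribonuclease with bactericidal activity. Goblet cells, which share a secretory progenitor with Paneth cells, make the gel-forming mucin Muc2 and the trefoil peptide Tff3.

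In GENCODE M21 on GRCm38, the 5 defensin genes lie on the plus strand of chromosome 8 and have 2 exons each, Defa21 at chr8:21025545-21026516, Defa30 at chr8:21134642-21135598, Defa22 at chr8:21162277-21163249, Defa17 at chr8:21655780-21656735 and Defa24 at chr8:21734494-21735471. Each encodes 93 amino acids. The last 108 bases of each coding sequence, stop codon included, encode the end of the secreted peptide and are shown because they separate the 5 genes into 2 groups, Defa24, Defa30 and Defa17 on one side and Defa21 and Defa22 on the other. In-frame cysteine codons are in capitals.
Defa24: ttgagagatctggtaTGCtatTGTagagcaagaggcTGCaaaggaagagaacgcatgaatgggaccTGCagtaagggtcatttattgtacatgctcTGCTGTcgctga
Defa30: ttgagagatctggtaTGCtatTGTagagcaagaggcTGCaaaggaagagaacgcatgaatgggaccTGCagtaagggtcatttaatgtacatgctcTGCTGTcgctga
Defa17: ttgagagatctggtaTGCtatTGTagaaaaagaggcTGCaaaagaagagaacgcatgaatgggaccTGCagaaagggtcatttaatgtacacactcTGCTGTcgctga
Defa21: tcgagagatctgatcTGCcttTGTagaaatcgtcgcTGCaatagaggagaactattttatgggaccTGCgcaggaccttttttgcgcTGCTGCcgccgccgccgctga
Defa22: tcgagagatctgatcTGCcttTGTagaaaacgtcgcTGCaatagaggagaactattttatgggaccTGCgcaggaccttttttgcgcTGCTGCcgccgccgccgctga
All 5 had 6 cysteine codons in this stretch. Defa24 and Defa30 differed at 1 of the 108 bases and Defa21 and Defa22 at 1, whereas Defa24 and Defa21 differed at 41 and Defa24 and Defa17 at 7. Such copies are hard to tell apart in 3′ reads, and Cell Ranger leaves out reads that fit several genes equally. Of all 90-base windows in the last 300 bases of the transcript, 86.7% of those of Defa17 and 38.9% of those of Defa21 and of Defa22 also occurred in another gene, against 1.42% for Defa30 and 0% for Defa24. Counts of Defa17, Defa21 and Defa22 are thus uncertain and may be too low. Lyz1, on the minus strand at chr10:117287797-117292868, was 96.7% identical to Lyz2 over its end, with 7.11% of windows shared. Itln1 (chr1:171518122-171535294), Ang4 (chr14:51763878-51773590) and Mmp7 (chr9:7692090-7699585) shared no such window with another gene.

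The tables held 9791 barcodes and 42150623 UMIs (unique molecular identifiers, each standing for 1 captured transcript) in the Adipfl/fl library and 11838 barcodes and 63370798 UMIs in the Adipfl/flpVilli-CreT library. A barcode counted as a cell when it held over 500 genes and a mitochondrial share below 25%, which left 3069 with a median of 4838 UMIs and 5555 with a median of 4749 UMIs. The libraries shared 31 barcodes, of which 3 were kept in both, and none of these held a UMI of the 9 genes. Adipoq, the targeted gene, had 1 UMI over all Adipfl/fl barcodes and 0 over all Adipfl/flpVilli-CreT barcodes, too few to check the labels.

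The 9 genes contributed 10217 UMIs in Adipfl/fl cells and 14681 UMIs in Adipfl/flpVilli-CreT cells. Defa24 made up most of them, with 8904 and 10955 UMIs. Itln1 followed with 715 and 2080 UMIs, Lyz1 with 222 and 1031, Ang4 with 190 and 73, and Mmp7 with 105 and 305. Defa17 had 55 and 97 UMIs, Defa30 had 23 and 84, Defa22 had 1 and 35, and Defa21 had 2 and 21. Counts were not divided by transcript length, because a 3′ library counts each transcript once at its end. A fold of the summed 9 genes is therefore largely the fold of Defa24.

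The 9 genes and other Paneth cell genes were kept out of the genes used for clustering, and no cluster was named from Paneth cell markers. At least 3 of the 9 were raised in 3 clusters, 7 in the goblet-like, 5 in a cycling and 4 in the crypt-like cluster, each of which carried at least as many markers of another list. The 9 genes were concentrated in the goblet-like cluster (226 and 409 cells), which carried 7 of 7 goblet markers and 7 of 9 Paneth cell markers. The goblet-like cells were 7.36% of the cells of each library and held 97.7% of the UMIs of the 9 genes in the Adipfl/fl library and 70.5% in the Adipfl/flpVilli-CreT library. All 226 and all 409 goblet-like cells held Muc2. The crypt-like cluster (82 and 214 cells), with 11 of 11 stem cell markers and 11 of 12 cycling markers, held 0.646% and 14.6% of the 9 genes' UMIs. A further cycling cluster (4 and 67 cells) held 0.303% and 4.32%. It was left without a cell type name because it reached the number set for cycling markers but not those set for goblet-like or crypt-like cells. In tuft-like and enteroendocrine-like cells of the Adipfl/flpVilli-CreT library most UMIs came from single barcodes, with 48 of 65 in 1 tuft-like barcode and 105 of 116 in 1 enteroendocrine-like barcode. The same classes of the Adipfl/fl library held 7 and 0 UMIs. Of the 411 UMIs in enterocyte-like cells of the Adipfl/flpVilli-CreT library no barcode held more than 27.

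Levels are given in CPM, the UMIs of a gene per 1000000 UMIs of the same class and library. In goblet-like cells, Defa24 stood at 4648 CPM (4552 to 4746) in the Adipfl/fl library and at 2191 (2143 to 2239) in the Adipfl/flpVilli-CreT library. It was found in 93 of 226 and 151 of 409 of these cells. Defa17, its neighbour in sequence, was at 28.4 CPM (21.4 to 37.1) and 12.6 (9.22 to 16.8). Defa30 was at 8.96 (5.22 to 14.3) and 12.9 (9.46 to 17.1). For Defa30 a single cell gave 14 of the 17 UMIs of the goblet-like Adipfl/fl cells and another gave 46 of the 47 UMIs of the goblet-like Adipfl/flpVilli-CreT cells, so its level in each library is that of 1 cell. Defa21 had no UMI in goblet-like Adipfl/fl cells and 1 in goblet-like Adipfl/flpVilli-CreT cells, and Defa22 had none in either. By a floor of 3 counts, 0 of 226 cells allows a share of cells with a UMI of up to 1.33%, and 0 of 409 cells up to 0.733% (exact upper limits 1.62% and 0.898%), which does not limit the share of cells that express the gene.

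Among the other members, Itln1 in goblet-like cells was at 332 CPM (306 to 359) in the Adipfl/fl library and 375 (356 to 396) in the Adipfl/flpVilli-CreT library. Lyz1 was at 102 (87.8 to 117) and 185 (171 to 199). Lyz2, its near copy and a myeloid gene, had 2 and 0 UMIs in the same cells, although it had 960 and 550 UMIs over all cells. The Lyz1 counts of goblet-like cells were thus not accompanied by counts of Lyz2. Ang4 was at 96.4 (82.9 to 111) and 15.9 (12.1 to 20.5). Mmp7, the protease that activates defensins, was at 42.7 (33.9 to 53) and 42.2 (35.8 to 49.4). In order of level in goblet-like cells, Defa24 led and Itln1 was next in both libraries. Lyz1 and Ang4 overlapped in the Adipfl/fl library but not in the Adipfl/flpVilli-CreT library, where Ang4 overlapped Defa17 and Defa30 instead.

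**Figure D1:**
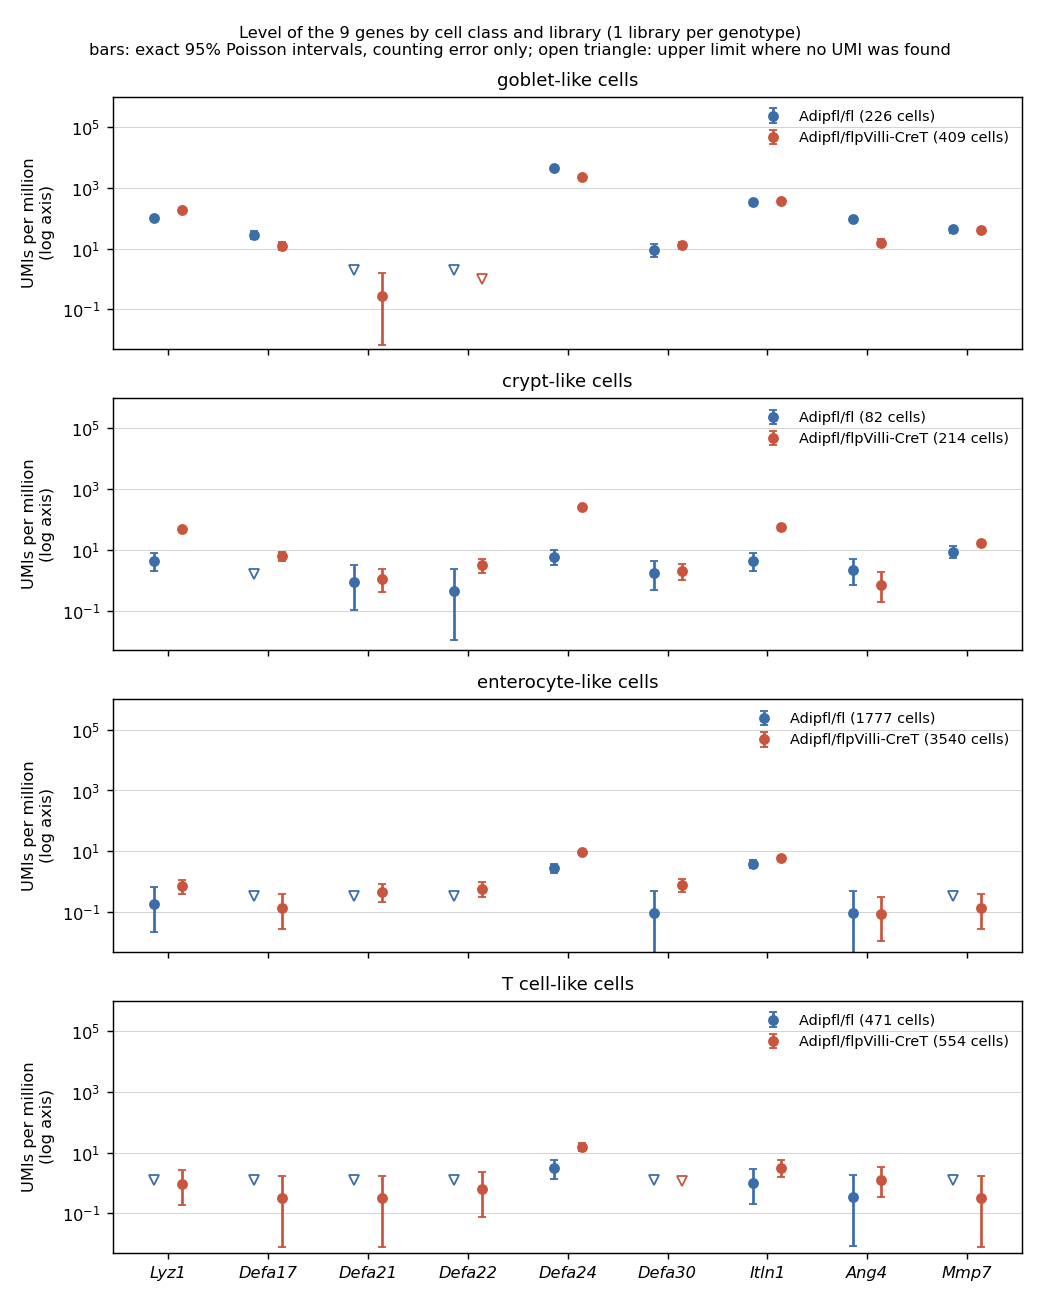
Level in CPM (log axis) of each of the 9 genes in goblet-like, crypt-like, enterocyte-like and T cell-like cells of the 2 libraries. Points are values pooled over the cells of 1 library, bars are exact 95% Poisson intervals (cut at the lower edge where they reach below it), and open triangles are upper limits where no UMI was found. Defa24, at 4648 and 2191 in goblet-like cells, is the highest member there, and Defa21 and Defa22 are lowest.

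T cell-like cells, which do not transcribe these genes, gave the background. The 9 genes together were at 4.41 CPM in the T cell-like cells of the Adipfl/fl library (13 UMIs in 471 cells) and at 22.1 in those of the Adipfl/flpVilli-CreT library (70 UMIs in 554 cells). The level in goblet-like cells was 1193 times this background (697 to 2241) in the Adipfl/fl library and 128 times (101 to 165) in the Adipfl/flpVilli-CreT library. For single genes, the ratio of goblet-like to T cell-like cells of the Adipfl/flpVilli-CreT library was 145 (109 to 196) for Defa24, 195 (66.5 to 948) for Lyz1, 119 (64.4 to 248) for Itln1 and 12.6 (4.65 to 47.7) for Ang4. Goblet transcripts differed between the T cell-like cells of the 2 libraries as well. Muc2 was at 35.3 CPM in the Adipfl/fl library and 808 in the Adipfl/flpVilli-CreT library, where the 10 of 554 cells richest in Muc2 held 87.6% of its UMIs and the 10 richest in Defa24 held 62.5% of the UMIs of Defa24. The part of such barcodes in the background was not tested.

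Enterocyte-like cells, the absorptive cells of the villus, held few transcripts of the 9 genes. The sum was at 6.99 CPM (5.52 to 8.72) in 1777 Adipfl/fl cells and 18.3 (16.5 to 20.1) in 3540 Adipfl/flpVilli-CreT cells. Defa24 was found in 31 of the 1777 cells, with 1 UMI in each, and in 186 of the 3540 cells, with at most 10 UMIs. The summed levels were near those of T cell-like cells of the same library. Muc2 moved with them, at 58.1 CPM in enterocyte-like cells of the Adipfl/fl library and 156 in those of the Adipfl/flpVilli-CreT library. Per 1000 UMIs of Muc2, enterocyte-like cells held 47.8 (32.2 to 68.5) and 60.2 (52.2 to 69.2) UMIs of Defa24. Goblet-like cells held 99.3 (97.2 to 102) and 53.1 (51.9 to 54.3). Itln1 was a larger share of the UMIs of Itln1 and Defa24 in enterocyte-like cells, 58.1% (46.1 to 69.5) and 38.9% (33.7 to 44.3), than in goblet-like cells, 6.66% (6.17 to 7.19) and 14.6% (13.9 to 15.4). The members therefore did not stand in the same ratio in both classes.

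The transcripts were very unevenly spread over cells. In the Adipfl/fl library 2 goblet-like cells held 56.1% of all UMIs of the 9 genes, and 8 cells were needed to reach 52% in the Adipfl/flpVilli-CreT library. The richest Adipfl/fl cell held 3733 UMIs of the 9 genes among 26390 UMIs, or 14.1%, of which 3378 were Defa24, 254 Itln1, 52 Lyz1, 35 Defa17 and 11 Mmp7. The second held 1997 among 15733 UMIs, with 1783 of Defa24, 78 of Ang4, 62 of Lyz1, 55 of Itln1 and 14 of Defa30. These cells were also rich in goblet transcripts, with 1447 and 385 UMIs of Muc2 and 3095 and 1135 of Tff3. The richest Adipfl/flpVilli-CreT cell, a goblet-like cell with 1365 UMIs of Muc2, held 1949 UMIs of Defa24, 391 of Lyz1 and 257 of Itln1. The second was a crypt-like barcode of 84085 UMIs, against a class median of 21622, with 1114 UMIs of Defa24, 210 of Itln1, 124 of Lyz1, 33 of Defa17 and 25 of Mmp7. It held 103 UMIs of the stem cell gene Olfm4, 27 of the cycling gene Mki67 and 186 of Muc2 at the same time.

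**Figure D2:**
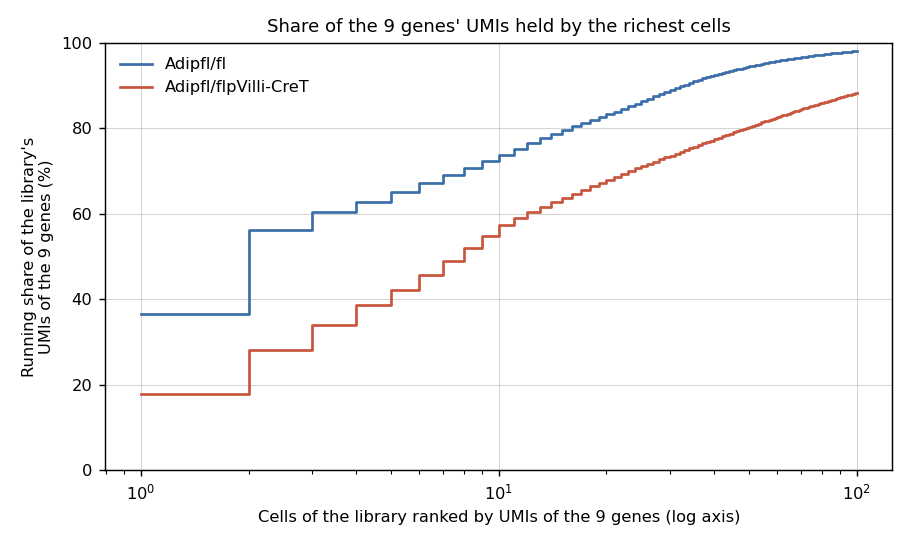
Running share (%) of each library's UMIs of the 9 genes over cells ranked from the richest (log axis, first 100 cells). In the Adipfl/fl library (blue) 1 cell holds 36.5% and 2 cells 56.1%, and in the Adipfl/flpVilli-CreT library (red) 1 cell holds 17.8% and 10 cells 57.2%.

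Cells in which the 9 genes made up at least 1% of all UMIs numbered 18 of 3069 (0.587%, 0.348 to 0.925) in the Adipfl/fl library and 27 of 5555 (0.486%, 0.321 to 0.706) in the Adipfl/flpVilli-CreT library. They held 77.1% and 66.6% of the UMIs of the 9 genes. All 18 in the Adipfl/fl library were goblet-like, and of the 27 in the Adipfl/flpVilli-CreT library 23 were goblet-like, 2 crypt-like, 1 enterocyte-like and 1 in a mixed plasma, myeloid and stromal cluster. That last barcode held 683 of the 689 UMIs of the 9 genes in its cluster. All 18 and all 27 held Defa24, since the threshold is in practice a threshold on this gene. Itln1 was found in 16 of 18 and 25 of 27, Lyz1 in 7 of 18 and 16 of 27, Mmp7 in 4 of 18 and 9 of 27, and Ang4 in 4 of 18 and 7 of 27.

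These cells were chosen for the 9 genes, and Muc2 was not used in the choice. All 18 and all 27 held Muc2, and among the UMIs of other genes its median share was 6.29% in the 18 cells against 5.72% in the remaining 208 goblet-like cells of the Adipfl/fl library. In the Adipfl/flpVilli-CreT library it was 4% in the 27 cells, of which 23 were goblet-like, against 5.13% in the remaining 386 goblet-like cells. The lowest Muc2 count was 103 in the 18 cells and 1 in the 27. Muc2 was also found in 48.2% of enterocyte-like and 73.8% of crypt-like cells of the Adipfl/flpVilli-CreT library. Holding a UMI of Muc2 thus does not mark a goblet cell there. Of the 18 cells 2 were among the 8% of their library with the highest doublet scores, against 34 of the other 208 goblet-like cells. The Adipfl/flpVilli-CreT numbers were 3 of 27 and 57 of 386. The doublet caller called only 3 and 2 doublets in the 2 libraries, and its scores were not tested. They therefore do not settle whether these cells are doublets. Median depth was 6049 UMIs in the 18 cells and 5503 in the other goblet-like cells, and 7975 against 6250 in the Adipfl/flpVilli-CreT library.

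Members were found together in the same cells. To compare cells of unequal depth, each cell was thinned to 2000 UMIs in 1 random draw, which left 2890 and 5259 cells. At least 3 of the 9 genes were then found in 0.484% (0.265 to 0.811) of Adipfl/fl cells and 0.647% (0.448 to 0.902) of Adipfl/flpVilli-CreT cells. Without thinning the shares were 1.47% and 2.02%. Among thinned goblet-like cells they were 14 of 216 (6.48%, 3.59 to 10.6) and 22 of 389 (5.66%, 3.58 to 8.44), and no thinned T cell-like cell of either library held 3. Shares of goblet-like cells with any of the 9 genes, 43.1% (36.4 to 49.9) and 41.1% (36.2 to 46.2), overlapped between the libraries.

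Within thinned goblet-like cells, Itln1 and Defa17 were found more often with Defa24 than without it in both libraries, beyond their intervals. Itln1 was found in 33 of 75 cells with Defa24 and in 10 of 141 without it in the Adipfl/fl library. In the Adipfl/flpVilli-CreT library it was found in 52 of 110 cells with Defa24 (47.3%, 37.7 to 57) and in 30 of 279 without it (10.8%, 7.37 to 15). Lyz1 was found in 19 of 110 Adipfl/flpVilli-CreT cells with Defa24 (17.3%, 10.7 to 25.7) and in 9 of 279 without it (3.23%, 1.49 to 6.04). Its shares in the Adipfl/fl library, 7 of 75 (9.33%, 3.84 to 18.3) and 2 of 141 (1.42%, 0.172 to 5.03), overlapped in their intervals. Defa17 was found in 7 of 75 (9.33%, 3.84 to 18.3) and 5 of 110 cells (4.55%, 1.49 to 10.3) with Defa24. It was found in none of the 141 and 279 cells without Defa24 (upper bounds 2.58% and 1.31%). In the Adipfl/flpVilli-CreT library these intervals were thus only just apart, and they rest on 5 cells in 1 random draw. Defa17 differs from Defa24 at 7 of the 108 bases shown above. Over its last 300 transcript bases its nearest copy was Defa3, with 299 identical bases. The part of reads from near copies in the Defa17 counts was not tested. The shares of Ang4, Mmp7 and Defa30 in cells with and without Defa24 overlapped in their intervals in both libraries. Ang4 was found in 6 of 75 and 5 of 141 Adipfl/fl cells and in 5 of 110 and 3 of 279 Adipfl/flpVilli-CreT cells, and Mmp7 in 10 of 110 and 11 of 279 of the latter. Defa30 was found in 1 of 75 and 1 of 141 Adipfl/fl cells and in 1 of 110 and 0 of 279 Adipfl/flpVilli-CreT cells.

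**Figure D3:**
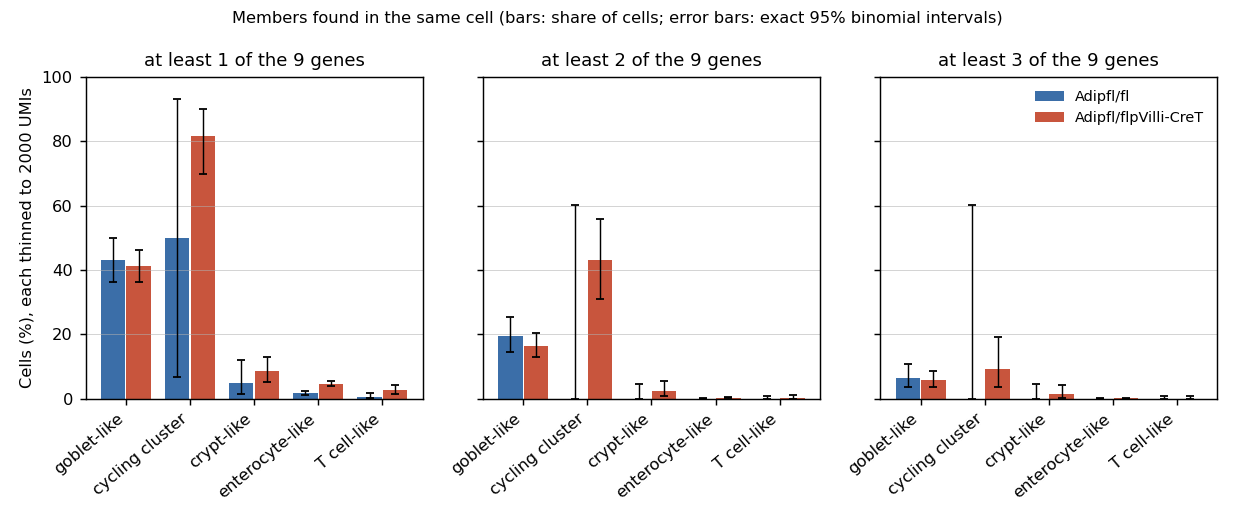
Share of cells (%) with at least 1, 2 or 3 of the 9 genes after thinning each cell to 2000 UMIs, by cell class and library; error bars are exact 95% binomial intervals. Goblet-like cells of the 2 libraries overlap at every number of genes, and the cycling cluster of the Adipfl/flpVilli-CreT library reaches 81.5% for at least 1 gene.

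The unnamed cycling cluster held the members in a different pattern. Of its 67 Adipfl/flpVilli-CreT cells 61 held Defa24 (91%, 81.5 to 96.6), against 36.9% of goblet-like cells, but no cell held more than 35 UMIs of it. After thinning the shares were 73.8% (61.5 to 84) and 28.3% (23.9 to 33). The level of the 9 genes there was 1152 CPM (1064 to 1245), with Defa24 at 801, Itln1 at 174, Mmp7 at 85.4 and Lyz1 at 63.6. Muc2 was found in 65 of the 67 cells, at 3282 CPM, and 10 cells held 72% of it. The cluster carried 11 of 12 cycling, 5 of 9 Paneth cell, 3 of 11 stem cell and 2 of 7 goblet markers, and Mmp7 was among its 10 leading genes. That place restates the Mmp7 level and is not a separate result, although Mmp7 was not used for clustering. The Adipfl/fl library had 4 cells in this cluster, with 31 UMIs of the 9 genes and none of Defa24. A cluster that comes almost wholly from 1 library may belong to that library and not to a cell type.

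Between the libraries, the question was whether the Paneth cell genes differ when epithelial adiponectin is deleted. A level was compared when it reached 50 CPM in the higher library with at least 20 UMIs in all, and a difference of at least 2-fold was counted. In goblet-like cells 4 of the 9 genes reached this level (Lyz1, Defa24, Itln1 and Ang4), of which Defa24 and Ang4 were at least 2-fold lower in the Adipfl/flpVilli-CreT library and none was at least 2-fold higher. Ang4 reached 50 CPM only through the Adipfl/fl library, at 96.4 against 15.9. It therefore had to be lower in the Adipfl/flpVilli-CreT library, though not necessarily by 2-fold. Among all 2769 genes compared in goblet-like cells, 0.217% were at least 2-fold lower and 1.05% at least 2-fold higher. The median log2 fold over all genes was 0.11 and over the 4 members -0.45, a median that includes Ang4. The single values were 0.862 for Lyz1, 0.178 for Itln1, -1.09 for Defa24 and -2.6 for Ang4. The 4 members thus had no common direction.

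Defa24 had 8823 UMIs in goblet-like Adipfl/fl cells and 8001 in goblet-like Adipfl/flpVilli-CreT cells, a ratio of 0.471 (0.457 to 0.486). Without the 2 goblet-like cells of each library richest in the 9 genes the counts were 3662 and 5339 and the ratio 0.754 (0.723 to 0.787). These 2 cells per library moved it by over 1.5 times. The share of goblet-like cells with Defa24 was 41.2% (34.7 to 47.9) in the Adipfl/fl library and 36.9% (32.2 to 41.8) in the Adipfl/flpVilli-CreT library, and these intervals overlap. Ang4 had 183 and 58 UMIs, a ratio of 0.165 (0.12 to 0.222). One cell held 78 of the 183, and without the 2 goblet-like cells of each library richest in the 9 genes the ratio was 0.256 (0.179 to 0.362). Ang4 was found in 31 of 226 Adipfl/fl cells (13.7%, 9.51 to 18.9) and 32 of 409 Adipfl/flpVilli-CreT cells (7.82%, 5.41 to 10.9), and these intervals overlap too. Its pooled level was lower in the Adipfl/flpVilli-CreT library with and without the 2 richest cells. Ang4 was compared only because of its level in the Adipfl/fl library, so a lower level in the other was built into the choice.

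Lyz1 had 193 UMIs in goblet-like Adipfl/fl cells and 675 in goblet-like Adipfl/flpVilli-CreT cells, a ratio of 1.82 (1.55 to 2.14). A single Adipfl/flpVilli-CreT cell held 391 of the 675. Without the richest goblet-like cell of each library the ratio was 1.04, and without the 2 richest it was 1.64 (1.27 to 2.14). The Lyz1 ratio thus depends on which single cells are counted. Itln1, with 630 and 1371 UMIs, had a ratio of 1.13 (1.03 to 1.24), and without the 2 richest goblet-like cells of each library 1.71 (1.5 to 1.94). Mmp7, with 81 and 154 UMIs, had a ratio of 0.988 (0.75 to 1.31). Defa17, with 54 and 46 UMIs, had a ratio of 0.443 (0.292 to 0.669). Without the 2 richest goblet-like cells of each library it was 0.906 (0.473 to 1.79), since 35 of the 54 UMIs lay in 1 of them. For the 9 genes together the ratio was 0.539 (0.524 to 0.554), and for the 8 genes without Defa24 it was 1.06 (0.984 to 1.13). The goblet genes themselves, Muc2, Tff3, Fcgbp, Zg16, Clca1, Agr2 and Spink4, had ratios between 0.776 and 1.17 in the same cells.

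**Figure D4:**
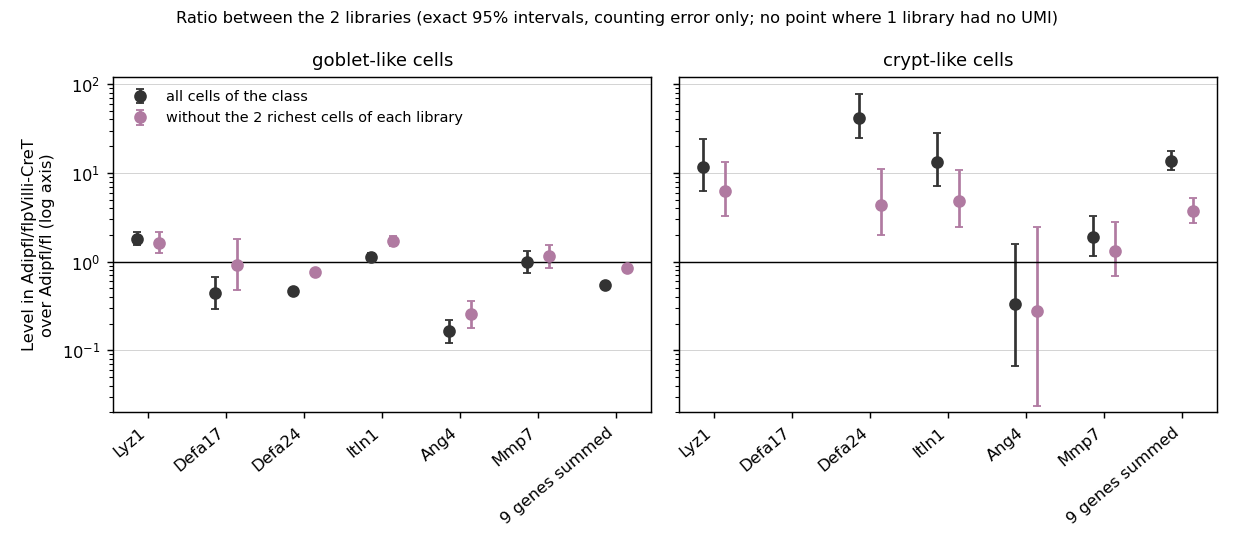
Level in the Adipfl/flpVilli-CreT library over that in the Adipfl/fl library (log axis) in goblet-like and crypt-like cells, for 6 of the 9 genes and the sum. Dark points use all cells of the class and light points leave out the 2 cells of that class richest in the 9 genes in each library. Bars are exact 95% intervals for counting error. Defa24 in goblet-like cells goes from 0.471 to 0.754 and in crypt-like cells from 41.7 to 4.32.

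In crypt-like cells the 9 genes had 66 UMIs in 82 Adipfl/fl cells and 2142 UMIs in 214 Adipfl/flpVilli-CreT cells, that is 28.5 CPM (22 to 36.2) and 389 (372 to 405), a ratio of 13.7 (10.7 to 17.7). A single barcode, the one of 84085 UMIs described above, held 1509 of the 2142. Without the 2 richest crypt-like cells of each library the counts were 45 and 399 and the ratio 3.73 (2.73 to 5.19). Of the 9 genes, Defa24 and Itln1 reached the level for comparison, both only through the Adipfl/flpVilli-CreT library. They therefore had to be higher there, though not necessarily by 2-fold. Both were at least 2-fold higher, as were 0.519% of the 3661 genes compared in crypt-like cells. Defa24 had 14 and 1388 UMIs, in 8 of 82 and 41 of 214 cells (9.76%, 4.31 to 18.3, and 19.2%, 14.1 to 25.1). Itln1 had 10 and 315 UMIs, in 8 and 28 cells. Lyz1 had 10 and 275 UMIs, a ratio of 11.6 (6.2 to 24.4) and of 6.22 (3.29 to 13.2) without the 2 richest cells. Mmp7 had 20 and 91 UMIs, a ratio of 1.91 (1.17 to 3.28) that was 1.33 (0.681 to 2.8) without them, and Ang4 had 5 and 4.

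Goblet genes moved with these members in crypt-like cells. Muc2 had 83 UMIs in crypt-like Adipfl/fl cells and 1574 in crypt-like Adipfl/flpVilli-CreT cells, a ratio of 7.98 (6.4 to 10.1), and the other 6 goblet genes had ratios between 3.33 and 10.5. The 10 cells richest in Muc2 held 74.7% of the Muc2 UMIs, and the 10 richest in Defa24 held 97.5% of the Defa24 UMIs, of the 214 crypt-like Adipfl/flpVilli-CreT cells. The part of barcodes that hold goblet as well as crypt transcripts in the crypt-like ratio was not tested. Over all cells only Defa24 reached the level for comparison, with a ratio of 0.646 (0.628 to 0.665), and among the 3264 genes compared 0.521% were at least 2-fold lower and 0.184% at least 2-fold higher. Without the 2 richest cells of each library the Defa24 ratio over all cells was 1.11 (1.07 to 1.15), and leaving out 2 cells per library thus turned its direction.

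Defa21 and Defa22 were spread differently over the cells from Defa24. Of the UMIs of Defa21, Defa22 and Defa24, those of Defa21 and Defa22 made up 0 of 8823 in goblet-like Adipfl/fl cells (upper bound 0.0418%) and 1 of 8002 in goblet-like Adipfl/flpVilli-CreT cells (0.0125%, 0.000316 to 0.0696). In enterocyte-like Adipfl/flpVilli-CreT cells they made up 23 of 235 (9.79%, 6.31 to 14.3), in T cell-like cells of that library 3 of 51 (5.88%, 1.23 to 16.2) and in crypt-like cells 23 of 1411 (1.63%, 1.04 to 2.44). The crypt-like share was set by 2 barcodes. Without the 2 crypt-like cells richest in the 9 genes, 6 UMIs of Defa21, 17 of Defa22 and 72 of Defa24 remained. In the barcodes that the filter removed, Defa21 and Defa22 made up 13 of 164 in the Adipfl/fl library (7.93%, 4.29 to 13.2) and 23 of 393 in the Adipfl/flpVilli-CreT library (5.85%, 3.75 to 8.65). In the Adipfl/flpVilli-CreT library the intervals of these 3 classes and of the removed barcodes lay above that of the goblet-like cells. A high Defa24 count lowers this share in itself. In level, the goblet-like to enterocyte-like ratio in that library was 0.616 (0.0142 to 4.33) for Defa21 and 0 (0 to 2.02) for Defa22. To T cell-like cells it was 0.867 (0.011 to 68.1) and 0 (0 to 4.62), and to crypt-like cells 0.252 (0.00547 to 2.07) and 0 (0 to 0.366). Only the last of these intervals excluded 1, so a different level was not shown in the other cases. Defa21 and Defa22 had no UMI in the unnamed cycling cluster, with 0 of 441 (upper bound 0.833%), nor in the mixed, enteroendocrine-like and tuft-like cells of that library, which held 583, 89 and 48 UMIs of Defa24. In the Adipfl/fl library the removed barcodes and the crypt-like cells, with 3 of 17 (17.6%, 3.8 to 43.4), lay above the goblet-like cells too, whereas its enterocyte-like cells, with 0 of 31, and its T cell-like cells, with 0 of 9, held too few UMIs to tell. The 3 crypt-like UMIs came from 2 cells, with a median of 46408 UMIs against a class median of 19432.

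The 35 Adipfl/flpVilli-CreT cells with a UMI of Defa21 or Defa22 were 18 enterocyte-like, 9 crypt-like, 5 of unnamed clusters, 2 T cell-like and 1 goblet-like. Of these, 12 also held Defa24, with at most 13 UMIs, and 5 held Lyz1. Enterocyte-like cells were 63.7% and crypt-like cells 3.85% of all cells of the Adipfl/flpVilli-CreT library. In the Adipfl/fl library 2 crypt-like cells held Defa21 or Defa22, and both held Defa24. Most UMIs of these genes in the Adipfl/fl library lay outside the kept cells, 7 of 9 for Defa21 and 6 of 7 for Defa22, compared with 151 of 9055 for Defa24, 11 of 233 for Lyz1 and 39.1% of the UMIs of all genes. In the Adipfl/flpVilli-CreT library the removed barcodes held 13 of 34 UMIs of Defa21 and 10 of 45 of Defa22, compared with 370 of 11325 of Defa24 and 22.8% of all UMIs. Defa30, which differs from Defa24 at 1 base of the sequence shown, had 7 of 30 and 22 of 106 UMIs in removed barcodes. In the Adipfl/flpVilli-CreT library it had 17 UMIs in enterocyte-like and 11 in crypt-like cells beside the 47 in goblet-like cells, of which 46 lay in 1 cell. The part of near copies in these counts was not tested.

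**Figure D5:**
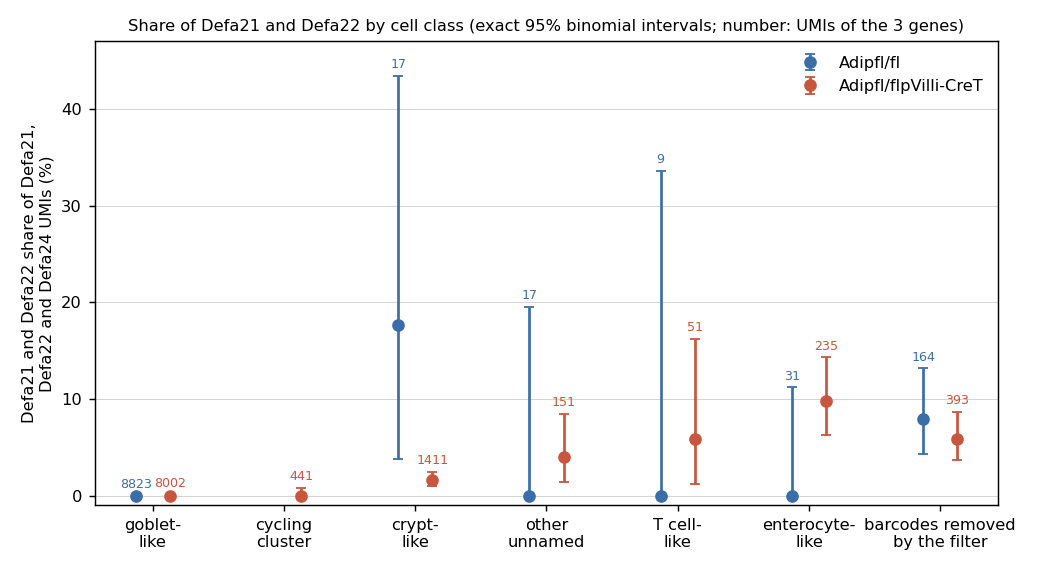
UMIs of Defa21 and Defa22 as a share (%) of the UMIs of Defa21, Defa22 and Defa24, by cell class and in barcodes removed by the filter. Points are pooled over the barcodes of 1 library, bars are exact 95% binomial intervals, and numbers give the UMIs of the 3 genes. The share is 0 of 8823 and 1 of 8002 in goblet-like cells and 23 of 235 in enterocyte-like Adipfl/flpVilli-CreT cells.

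Of 23 other alpha-defensin genes in the tables, 11 had no UMI in either library. Only Defa39 reached 10 UMIs in the Adipfl/fl library, and Defa39, Defa3 and Defa36 did so in the Adipfl/flpVilli-CreT library. Defa39 had 172 UMIs in goblet-like Adipfl/fl cells and 37 in goblet-like Adipfl/flpVilli-CreT cells, a ratio of 0.112 (0.0762 to 0.16). It reached the level for comparison only through the Adipfl/fl library, at 90.6 against 10.1 CPM. Of its 173 UMIs in the Adipfl/fl library 164 lay in the 18 cells rich in the 9 genes. In goblet-like cells not rich in them it was at 4.55 and 0.878 CPM. Of 17 alpha-defensin pseudogenes 16 had none. Of 30 other genes listed for Paneth cells 20 were in the tables, and 12 had at least 10 UMIs in goblet-like cells of each library. Of these, 9 in the Adipfl/fl library and 8 in the Adipfl/flpVilli-CreT library were at least 2-fold higher in goblet-like than in enterocyte-like cells, as were 14.9% and 15.0% of all genes with that many UMIs. The list was chosen with earlier results of these data known, so these counts do not test whether Paneth cell genes are raised in goblet-like cells. Mptx1, a mucosal pentraxin, had 15 UMIs in goblet-like Adipfl/fl cells and 88 in goblet-like Adipfl/flpVilli-CreT cells. Its ratio was 3.05 (1.75 to 5.68), from 7.9 and 24.1 CPM, below the level for comparison. Of its 93 UMIs in the Adipfl/flpVilli-CreT library 53 lay in the 27 cells rich in the 9 genes. Mptx2 had 0 and 1 UMIs over all cells, and Pla2g2a, a secreted phospholipase, had 0 and 7, the 7 in cells rich in the 9 genes. Of the 7 such genes at the level for comparison, Nupr1 alone was at least 2-fold lower and none was at least 2-fold higher in goblet-like Adipfl/flpVilli-CreT cells. Nupr1 had 877 and 829 UMIs, a ratio of 0.491 (0.446 to 0.541).

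Of 20 regulators and niche signals listed for Paneth cells, 6 reached the level for comparison in goblet-like cells and none differed by at least 2-fold there. Atoh1, the transcription factor that commits cells to the secretory lineage, had 653 and 1001 UMIs in goblet-like cells, a ratio of 0.797 (0.721 to 0.881). Spdef, a factor of goblet and Paneth cell maturation, had 369 and 504, a ratio of 0.71 (0.619 to 0.814). Sox9, which Paneth cells require, had 12 and 11 UMIs in goblet-like cells and 670 and 1186 over all cells.

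Across the 38 points that 19 clusters gave in the 2 libraries, the 10 genes whose level was most like the mean profile of the members, of 14158 genes compared, were Spink4 (Pearson's r = 0.873 on log2 levels), Atoh1 (0.86), Id4 (0.856), Spdef (0.848), Chrm3 (0.84), Pla2g10 (0.825), Rep15 (0.819), Fcgbp (0.815), Creb3l4 (0.811) and Chst4 (0.806). The points share libraries and differ in depth, and the correlations describe these clusters only. Defa21 and Defa22 were among the members in this profile. The correlation of each other member with it ran from 0.746 for Ang4 to 0.893 for Lyz1. Each member is itself part of the profile, so these values are raised by construction. They do not compare with those of genes outside it.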

How the data were processed

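The authors deposited UMI counts per gene and barcode for 2 droplet libraries, made with Cell Ranger (7.1.0 in the file headers) on mm10. No normalization had been applied. The limits in the study's methods were applied (over 500 genes, mitochondrial share below 25%), leaving 3069 and 5555 of 9791 and 11838 barcodes. The study states that it kept many more cells of each library from the same barcodes, so the cells used here differ from its set. Cells were clustered with Seurat 5.3.0 and Matrix 1.6.5 in R 4.3.3 (scale factor 10000, 2000 variable genes without 20 Paneth cell genes, 20 principal components, resolution 0.8), which gave 20 clusters. Markers with at least 10 UMIs and 2-fold above the rest were counted in each cluster. In this order, a cluster was named mixed with at least 3 stromal, myeloid and plasma markers each, myeloid, B or plasma, T cell or goblet-like with 5, crypt-like with 7 stem cell markers, left as an unnamed cycling cluster with 7 cycling markers, and named tuft or enteroendocrine-like with 5 or enterocyte-like with 3. These numbers were set after the marker counts were seen, and no class was named from Paneth cell markers. Scrublet (scanpy 1.11.5) called only 3 and 2 doublets, so its calls were not relied on and no doublets were removed.

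UMIs were summed per class and library and divided by all UMIs of that class, per 1000000. Intervals were exact (Poisson for levels, Clopper-Pearson for shares, conditional binomial for ratios), at 95%, with a floor of 3 counts for 0. They were computed in Python 3.11.15 with numpy 2.4.6, scipy 1.17.1 and pandas 2.3.3 and drawn with matplotlib 3.10.9, and the ratio script was tested on simulated data. Near copies were sought with BLAST 2.17.0. With 1 library per genotype no test between genotypes was made. Named were the 9 genes, fixed lists of Paneth cell and goblet genes, and the 10 genes most like the members among genes with at least 50 UMIs, over clusters of at least 20 cells per library. Genes named from these lists in the text, and the members and lists themselves, were chosen with earlier results of these data known.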

Additional observations from a re-analysis of the deposited data

Results flagged for a closer look

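Ratios of the Adipfl/flpVilli-CreT to the Adipfl/fl library lay on opposite sides of 1 in goblet-like and in crypt-like cells for 2 genes and for the sum, and the difference between the classes was not tested. For Defa24 the ratio was 0.471 in goblet-like and 41.7 in crypt-like cells. For Defa17 it was 0.443 in goblet-like cells and 4.91 in crypt-like cells when computed against a floor of 3 UMIs, because no UMI was found in the Adipfl/fl library. The exact lower limit was 3.78, and 33 of the 35 UMIs of the other library lay in 1 barcode. For the 9 genes together it was 0.539 in goblet-like and 13.7 in crypt-like cells. Defa24 kept its directions without the 2 richest cells of each class and library, at 0.754 and 4.32. The crypt-like value then came from 7 and 72 UMIs, at 3.08 and 13.3 CPM, below the level for comparison. Defa24 in T cell-like cells, used as background, was at 3.05 and 15.2 CPM, a ratio of 4.97 (2.41 to 11.5). The part of this background in the crypt-like ratio was not tested.

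Barcodes that the filter removed held Defa21 and Defa22 at 7.93% of the UMIs of Defa21, Defa22 and Defa24 in the Adipfl/fl library and at 5.85% in the Adipfl/flpVilli-CreT library, above the shares in goblet-like cells.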

How the results depend on the processing

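Each result was recomputed under other filters, clusterings and scalings, 296 values for 27 results, of which 207 stayed within their interval, 83 moved and 6 reversed. The alternatives without the 2 richest cells, without Defa24 and with joined clusters were chosen after seeing the data. Richest cells were left out within each class and library that a result used. The ratio of the 9 genes over all cells (0.755) was 0.718 with mitochondrial shares under 10%, 0.935 with no mitochondrial limit, 0.605 without the top 8% of doublet scores, 0.977 without the richest cell of each library and 0.776 as a mean over cells. It reversed to 1.24 without the 2 richest cells and to 1.49 without Defa24. In goblet-like cells (0.539) it was 0.557 under 10% mitochondrial UMIs, 0.513 without high doublet scores, 0.640 without the richest cell, 0.579 as a mean over cells, 0.837 without the 2 richest and 1.06 without Defa24, which reverses it. In crypt-like cells (13.7) it was 6.23 without high doublet scores, 4.97 without the richest cell, 5.20 as a mean over cells, 3.73 without the 2 richest and 6.10 without Defa24. The share of cells with at least 3 members (0.484% and 0.647%) was 1.196% and 1.09% under 10% mitochondrial UMIs, 0.231% and 0.323% with no limit, 1.47% and 2.02% without thinning, and 0.138% and 0.228% without Defa24. In the Adipfl/flpVilli-CreT library it was also 0.410% without high doublet scores and 0.290% at 1000 UMIs. The goblet-like to T cell-like ratio of the Adipfl/fl library (1193) was 673 without the 2 richest cells and 450 without Defa24. That of the Adipfl/flpVilli-CreT library (128) was 78.9 with more than 1000 genes, 296 without high doublet scores, 84.1 with Paneth cell genes allowed in clustering, 85.5 with 30 principal components and 92.7 without Defa24.

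A ratio was called reversed where its interval excluded 1 and the alternative lay on the other side of 1. Single genes reversed in 3 of 217 values. Defa24 over all cells went from 0.646 to 1.11 without the 2 richest cells, Defa17 in goblet-like cells from 0.443 to 1.01 without the richest cell, and Itln1 in goblet-like cells from 1.13 to 0.964 without high doublet scores. A further 11 values crossed 1 where the interval included 1. Defa17 over all cells (0.927) was 2.31 without the richest cell, 1.70 without 2 and 1.13 with no mitochondrial limit, Defa30 in goblet-like cells (1.44) was 0.684 as a mean over cells and 0.259 without the 2 richest, and Mmp7 in goblet-like cells (0.988) was 1.02 to 1.21 in 6. The causes were not tested. No paired analysis was possible because the labels give no replicate numbers and there is 1 library per genotype. Depth limits Defa21, Defa22 and Defa30 most, with 2, 1 and 23 UMIs in Adipfl/fl cells.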
